A study of Mus musculus with 6 samples.

Results

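Notch signalling genes were examined in the distal part of the mandible (lower jaw) of single mouse embryos at stage E10.75. They are the 10 genes with the symbols Jag1, Jag2, Dll1, Notch1, Notch2, Notch3, Hes1, Hey1, Hey2 and Heyl, of 21827 genes listed, and each symbol stands on 1 row in all 6 libraries. By the labels, 3 mutant embryos are Msx1f/f;Msx2f/f;Rosa26mTmG/+;Hand2-Cre and 3 control embryos are Msx1f/+;Msx2f/f;Rosa26mTmG/+;Hand2-Cre, with 1 embryo of each label from each of 3 litters. Hand2-Cre, a recombinase under Hand2 regulatory sequence, the Rosa26 mTmG reporter that turns recombined cells green, and floxed Msx2 on both copies are thus shared by both labels. Tissue was dissected under fluorescence and no cell sort is stated, so the libraries can hold cells in which the Cre was not active. Values are TPM, which scale transcript abundance to a fixed total per library and allow for transcript length.

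Notch receptors sit in the cell membrane and are activated by Jagged or Delta ligands on a neighbouring cell. Binding leads to cleavage of the receptor, and its freed intracellular domain joins the DNA-binding protein RBPJ to switch on genes of the Hes and Hey families, which encode repressors of transcription. Jagged ligands take part in patterning of the arches in zebrafish and in growth of the face and palate in mice, while Notch1, Dll4, Hey1 and Hey2 are also known from arterial endothelium and Notch3 and Heyl from the mural cells around vessels.

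Msx1, the homeobox gene that the labels differ in, goes against them in 4 of 6 libraries. In litter 1, Msx1 stood at 1.90 TPM in the embryo labelled mutant, against 84.1 TPM in its littermate labelled control. In litter 2 it was at 2.61 TPM in the library labelled control, against 78.8 TPM in its littermate labelled mutant. In litter 3 it was at 1.99 TPM in the library labelled control, against 73.3 TPM in its littermate labelled mutant. Below, the library of each litter with Msx1 under 10 TPM is called Msx1-low and its littermate over 50 TPM Msx1-high. Because these libraries are set apart by a measured value, the comparison inside litters is given as values with no test of its own. Tests come from 2 sources. One is the comparison by the labels. The other is the authors' deposited table, which does not state its direction. It gives Msx1 a log2 fold change of -5.19 ± 0.26 (standard error), inside the range of -5.47 to -4.92 that the litters give as Msx1-low over Msx1-high, so its signs are read in that direction.

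Defining markers of arch mesenchyme were present in every library. Hand2, Prrx1 and Twist1 were at 210.0 to 261 TPM, 140 to 155 TPM and 157 to 187 TPM over the 6 libraries. The 9 mesenchyme markers summed to 1014 to 1071 TPM in Msx1-low libraries and 1071 to 1110 TPM in Msx1-high libraries. The 12 endothelial markers, which include Pecam1 and Cdh5, were all kept by a filter of at least 1 TPM in at least 3 libraries. Of 7 neuronal markers 2 were kept, and Neurog1 was listed at 0 in every library. Red blood cell markers summed to 22180 TPM in the Msx1-low library of litter 1 and to 6811 to 9617 TPM in the other 5. The part of these cells in the values below was not tested.

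RBPJ binds DNA at the core TGGGAA, which was looked for next to the start of each gene. RefSeq promoters (GRCm38.p6, 250 bases before to 50 after the start) were given for 7 of the 10 genes, in 8 windows, 2 of them for Dll1. Hes1, Hey1 and Heyl had no entry. The core was searched on both strands, as TGGGAA and TTCCCA. Only the Hey2 window held it, 2 times, and the other 7 windows held no match. Among all 32851 promoter windows of the same length, 25.6% held at least 1 match and 3.79% held at least 2. The Hey2 window (chr10:30842734-30843033, minus strand, GRCm38.p6) is shown because Hey2 had the widest relative difference among the targets in litters 1 and 2. Capitals mark the matches, whose first bases lie 207 and 3 bases upstream of the start.
Hey2 promoter: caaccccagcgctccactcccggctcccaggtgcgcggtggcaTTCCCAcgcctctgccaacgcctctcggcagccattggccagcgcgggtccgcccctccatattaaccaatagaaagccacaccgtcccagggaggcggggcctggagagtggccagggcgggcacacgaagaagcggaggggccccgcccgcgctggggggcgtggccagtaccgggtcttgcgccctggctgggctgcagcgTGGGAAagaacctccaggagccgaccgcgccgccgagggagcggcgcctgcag
These matches are a description of letters and not of occupied sites.

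By level, the 10 genes fell into 3 tiers. Notch2, Hes1 and Notch3 formed the upper tier, at 27.9 to 32.8 TPM, 25.3 to 32.1 TPM and 20.1 to 27.9 TPM over the 6 libraries, with ranges that overlapped from each gene to the next. Below a gap came Hey1 at 7.79 to 13.6 TPM, Notch1 at 6.42 to 10.5 TPM, Jag2 at 4.93 to 6.87 TPM and Jag1 at 3.70 to 5.63 TPM, and here too each range overlapped the next. Below a further gap came Hey2 at 0.167 to 1.16 TPM, Heyl at 0.230 to 0.518 TPM and Dll1 at 0 to 0.264 TPM, again with overlap between neighbours. The receptors Notch2 and Notch3 and the target Hes1 were thus more abundant than any of the 3 ligands. The base mean in the authors' deposited table, a mean of normalized read counts over the libraries, was 2458 for Notch2 and 240 for Hes1, but 18.1 for Hey2, 13.5 for Heyl and 2.59 for Dll1, so that the lowest tier rests on few reads.

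**Figure D1:**
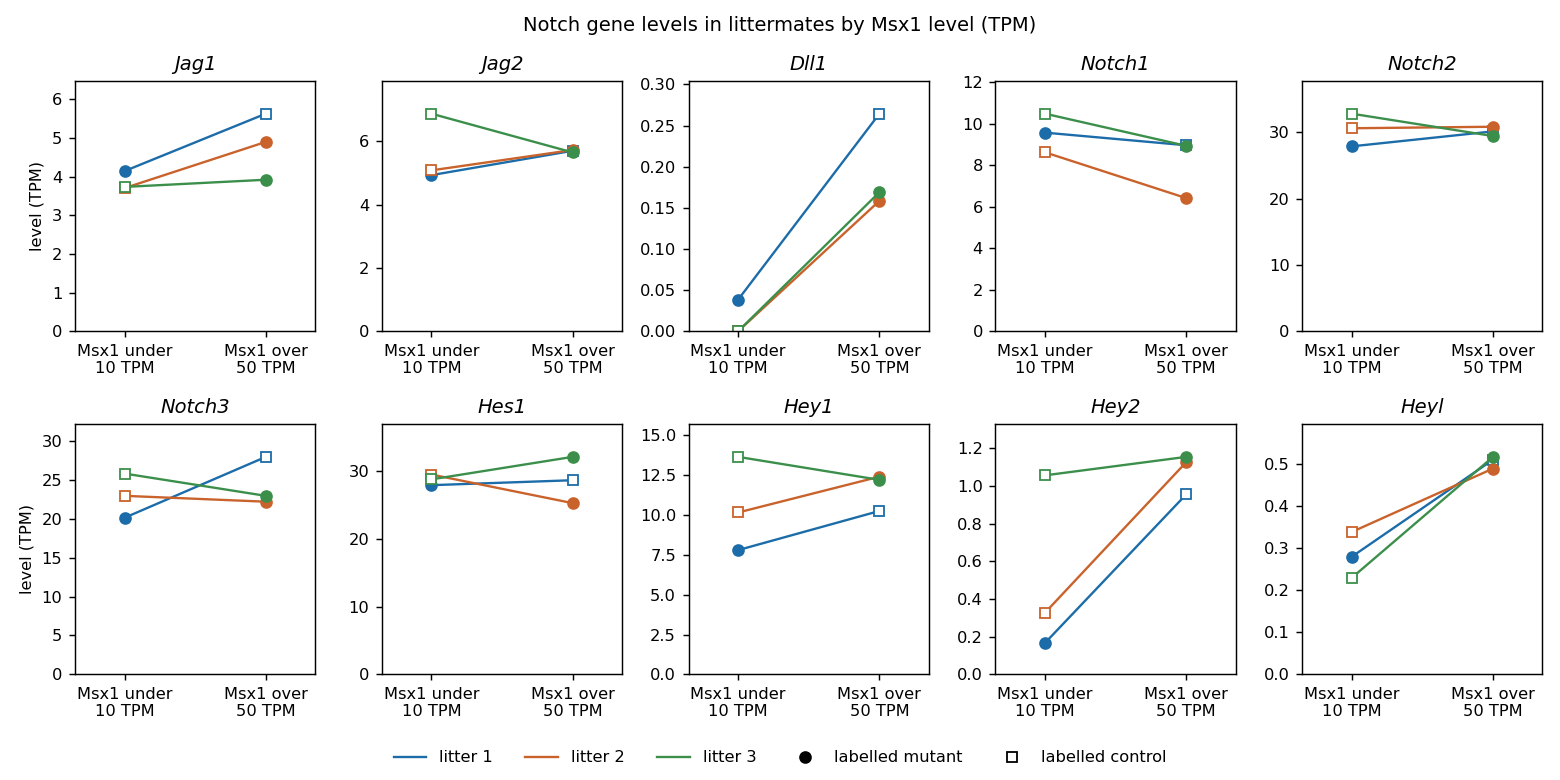
Level in TPM (vertical axis, from 0, scaled for each gene) of the 10 Notch genes in the Msx1-low (left) and Msx1-high (right) library of each litter. Lines join littermates, colours give the litter, filled circles are libraries labelled mutant and open squares libraries labelled control. Lines of Jag1, Dll1, Hey2 and Heyl climb to the right in all 3 litters, those of Notch1 descend in all 3, and the other 5 genes are mixed.

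Of the ligands, Jag1 (ENSMUSG00000027276, chromosome 2, 137081456 to 137116644, GRCm38), whose loss causes craniofacial and vascular defects in mice, was lower in the Msx1-low library of every litter. It was at 4.14, 3.70 and 3.73 TPM in the Msx1-low libraries of litters 1, 2 and 3, against 5.63, 4.90 and 3.92 TPM in their Msx1-high littermates. The gap was narrow in litter 3, and the groups overlapped, since the Msx1-low value of litter 1 exceeded the Msx1-high value of litter 3. In the authors' deposited table the log2 fold change of Jag1 was -0.31 ± 0.26 (standard error; unadjusted p = 0.234), with a 95% Wald interval from -0.81 to 0.20. Jag2 (ENSMUSG00000002799, chromosome 12, 112907819 to 112929776), needed for closure of the palate, had no common direction. It was at 4.93, 5.08 and 6.87 TPM in the Msx1-low libraries, against 5.70, 5.72 and 5.64 TPM in Msx1-high littermates, lower in litters 1 and 2 and higher in litter 3. The Msx1-high values of Jag2 lay within 0.1 TPM of each other, while the Msx1-low values spread on both sides of them. Its log2 fold change in the authors' deposited table was -0.03 ± 0.30 (unadjusted p = 0.917; interval -0.61 to 0.55).

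Dll1 (ENSMUSG00000014773, chromosome 17, 15367354 to 15376872), the Delta ligand of somite and neural progenitors, was close to absent from this tissue. It was at 0.0384 TPM in the Msx1-low library of litter 1 and listed at 0 in those of litters 2 and 3, against 0.264, 0.158 and 0.169 TPM in the Msx1-high littermates. All 3 Msx1-low values were below all 3 Msx1-high values. With 2 libraries at 0 and a base mean of 2.59, the value that the authors' deposited table gives, a log2 fold change of -3.90 ± 2.37 (unadjusted p = 0.10, no adjusted p), is no measure of size.

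Among the receptors, Notch1 (ENSMUSG00000026923, chromosome 2, 26457903 to 26516663) was the only one of the 10 genes that was higher in the Msx1-low library of all 3 litters. It was at 9.58, 8.63 and 10.5 TPM in the Msx1-low libraries of litters 1, 2 and 3, against 8.97, 6.42 and 8.94 TPM in the Msx1-high littermates. The groups overlapped by 1 library, the Msx1-low one of litter 2. The authors' deposited table gives a log2 fold change of 0.25 ± 0.17 (unadjusted p = 0.147; interval -0.09 to 0.59). Notch4, the endothelial receptor on the list of other ligands and receptor, did not share that pattern, at 1.99, 2.07 and 1.93 TPM in Msx1-low libraries against 2.18, 1.05 and 1.97 TPM in Msx1-high littermates.

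Notch2 (ENSMUSG00000027878, chromosome 3, 98013527 to 98150361), the most abundant of the receptors, barely varied. It was at 27.9, 30.6 and 32.8 TPM in the Msx1-low libraries, against 30.2, 30.9 and 29.4 TPM in Msx1-high littermates. Its log2 ratios of -0.11, -0.01 and 0.15 on the log2(TPM + 1) scale in litters 1, 2 and 3 lay near those of the median kept gene, which were -0.09, 0.007 and 0.08. In the authors' deposited table its log2 fold change was 0.01 ± 0.11 (unadjusted p = 0.911; interval -0.21 to 0.23), the narrowest interval of the 10 genes. Notch3 (ENSMUSG00000038146, chromosome 17, 32120820 to 32166852) was at 20.1, 22.9 and 25.8 TPM in the Msx1-low libraries, against 27.9, 22.2 and 22.9 TPM in Msx1-high littermates. Only litter 1 had the lower value on the Msx1-low side, and the authors' deposited table gives -0.08 ± 0.15 (unadjusted p = 0.563; interval -0.37 to 0.20). Exons of Dll1, Notch1, Notch2 and Notch3 overlap other annotated transcripts, on the opposite strand except for Notch2, none of which is listed in the files. The sources used here do not say whether the counting used strand.

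The targets divided by abundance. Hes1 (ENSMUSG00000022528, chromosome 16, 30064384 to 30067796), the most abundant of the 4 targets, was at 27.9, 29.5 and 28.8 TPM in the Msx1-low libraries, against 28.7, 25.3 and 32.1 TPM in Msx1-high littermates. The 3 Msx1-low values lay inside the spread of the Msx1-high values. Its log2 fold change in the authors' deposited table was 0.009 ± 0.24 (unadjusted p = 0.972; interval -0.47 to 0.49). Differences in either direction lie inside that interval. Hey1 (ENSMUSG00000040289, chromosome 3, 8663359 to 8667256) had no common direction. It was at 7.79, 10.1 and 13.6 TPM in the Msx1-low libraries, against 10.2, 12.4 and 12.2 TPM in Msx1-high littermates, lower in litters 1 and 2 and higher in litter 3. The authors' deposited table gives -0.17 ± 0.28 for Hey1 (unadjusted p = 0.532; interval -0.72 to 0.37).

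Hey2 and Heyl, the scarce targets, were lower in the Msx1-low library of every litter. Hey2 (ENSMUSG00000019789, chromosome 10, 30832359 to 30842801), known for its roles in heart and artery, was at 0.167, 0.327 and 1.06 TPM in the Msx1-low libraries of litters 1, 2 and 3, against 0.956, 1.13 and 1.16 TPM in the Msx1-high littermates. Its value was 5.74-fold lower in litter 1 and 3.45-fold lower in litter 2, but 1.09-fold lower in litter 3, and the Msx1-low value of litter 3 exceeded the Msx1-high value of litter 1. In the authors' deposited table Hey2 had the smallest p of the 10 genes, with a log2 fold change of -1.42 ± 0.86 (unadjusted p = 0.098; interval -3.11 to 0.26). Heyl (ENSMUSG00000032744, chromosome 4, 123233556 to 123249875), a related repressor known from mural cells, was at 0.280, 0.339 and 0.230 TPM in the Msx1-low libraries, against 0.511, 0.490 and 0.518 TPM in Msx1-high littermates. The Heyl groups did not overlap, yet its fold change in the authors' deposited table was -0.86 ± 0.92 (unadjusted p = 0.351; interval -2.66 to 0.94). In bulk tissue, fewer cells of a type and less RNA per cell cannot be told apart.

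Vessel markers are set beside Hey2 and Heyl for that reason. The 12 endothelial markers summed to 119 to 122 TPM in Msx1-low libraries and 120 to 138 TPM in Msx1-high libraries. The 6 arterial markers summed to 53.9, 52.6 and 65.6 TPM in the Msx1-low libraries of litters 1, 2 and 3, against 72.3, 68.5 and 71.9 TPM in the Msx1-high littermates. Most of that sum came from Efnb2 and Unc5b, and the markers did not all share its direction. Efnb2 and Gja5 were lower in every litter, but Sox17 was higher in the Msx1-low library of litters 1 and 3 (3.40 against 1.71 TPM and 2.75 against 0.75 TPM), Gja4 in that of litter 2 (3.84 against 2.01 TPM) and Unc5b in that of litter 3 (23.9 against 22.9 TPM). Bmx did not exceed 0.10 TPM in any library. Mural markers summed to 41.6 to 58.1 TPM in Msx1-low libraries and 48.3 to 59.8 TPM in Msx1-high libraries. In every litter, 4 of 12 endothelial, 2 of 6 arterial, 1 of 7 mural and 4 of 9 mesenchyme markers were lower in the Msx1-low library, and 1, 0, 2 and 2 of them were higher. Of all 12152 kept genes, 1443 were lower and 1314 higher in every litter. The marker counts also include markers below the filter, since only 3 of the 7 mural markers were kept. The 2 higher mural markers were Kcnj8 and Cspg4, which reached at most 0.504 and 1.07 TPM in any library. The part of arterial cells in the Hey2 values was not tested.

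In all, 5 of the 10 genes differed in the same direction in every litter. Of these, 4 (Jag1, Dll1, Hey2 and Heyl) were lower in the Msx1-low library, while Notch1 was higher. For comparison, of the genes kept by the filter together with 3753 scarce genes (below the filter, with a mean under 1 TPM and a value above 0 in at least 3 libraries), 22.8% had 1 direction in every litter and 12.1% were lower in every litter. Dll1 and Heyl are among the scarce genes, and Hey2 passed the filter with exactly 3 libraries, of which 2 were Msx1-high. Dll1 was above 0 in all 3 Msx1-high libraries but in only 1 Msx1-low library. It thus entered that set of genes through the group where it is high. All Msx1-low values lay below all Msx1-high values for 2 of the 10 genes, Dll1 and Heyl, as for 5.23% of that set of genes. Without litter 3 the count lower in every litter was 7 of 10, by the addition of Jag2, Notch2 and Hey1, beside 30.2% of those genes. Litter 3 was therefore the pair in which the ligand Jag2, the receptor Notch2 and the target Hey1 had the opposite order. The median kept gene moved the same way, with log2 ratios of -0.09, 0.007 and 0.08 in litters 1, 2 and 3.

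No member passed a test. The authors' deposited table has an adjusted p for 9 of the 10 genes, 1.00 for each, so 0 of 9 were below 0.05, beside 0.0961% of 14572 genes. At an unadjusted p of 0.05 the count was also 0 of 10, beside 1.85% of 17605 genes. The submitters' processing notes name DESeq2, but the terms of the model behind these p-values are not stated. The intervals above of Hey2 and Heyl allow differences of more than 2-fold in at least 1 direction.

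**Figure D2:**
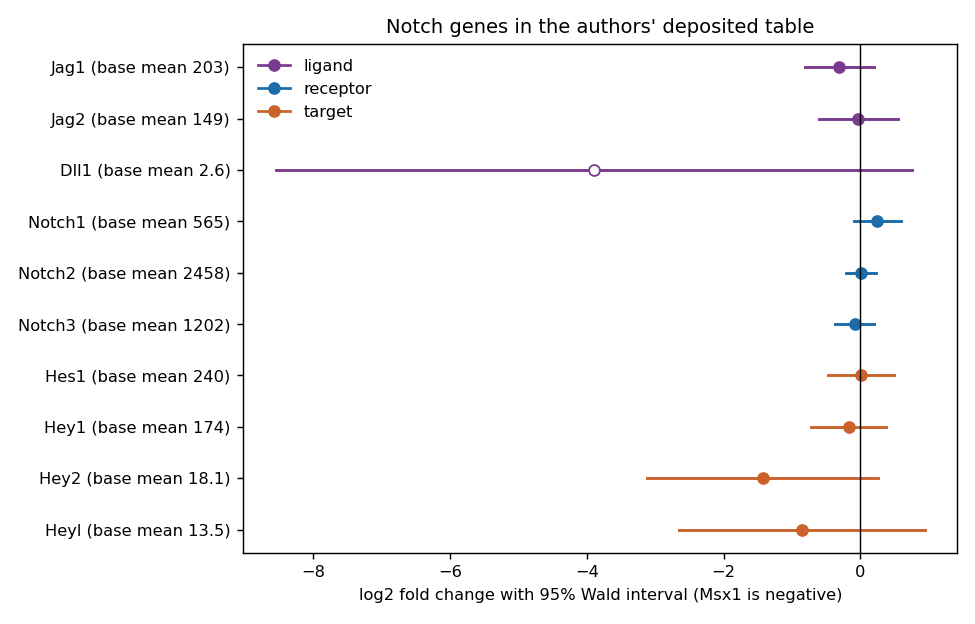
Log2 fold change of each gene in the authors' deposited table (horizontal axis, with Msx1 negative on this scale), with 95% Wald intervals computed from the table's standard errors and the base mean beside each name. Every interval includes 0. Intervals of Notch2 (-0.21 to 0.23) and Notch3 are the narrowest and those of Hey2, Heyl and Dll1 the widest, and the open point marks Dll1, whose fitted value is no measure of size.

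Between the labels as deposited, the 8 kept genes also showed no difference past the threshold. With limma on log2(TPM + 1), 0 of 12152 genes (0%) were called at an adjusted p of 0.05, where the smallest adjusted p was 0.458. Before adjustment, 231 genes with positive and 586 with negative differences had a limma p under 0.05. The median log2 difference of all kept genes was itself negative, at -0.06. Among the members the log2 differences, mutant minus control label, ran from -0.22 ± 0.11 for Notch3 (SE; limma adjusted p = 0.727) to 0.005 ± 0.18 for Jag1 (limma adjusted p = 0.996). Notch3 averaged 21.7 ± 1.46 TPM in libraries labelled mutant and 25.5 ± 2.51 TPM in those labelled control (SD, n = 3 each). Hes1 averaged 28.4 ± 3.44 TPM in libraries labelled mutant and 29.0 ± 0.455 TPM in those labelled control (SD, n = 3 each). Since Msx1 is crossed with the labels in litters 2 and 3, this comparison mixes Msx1-low and Msx1-high libraries on both sides.

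The rest of the pathway was read from 65 further genes in 7 lists, of which 50 were kept by the filter. In the authors' deposited table none of them passed at 0.05 after adjustment (58 had an adjusted p), none had an unadjusted p under 0.05, and limma called none between the labels. Of the 50 kept genes, 6 were lower and 7 higher in the Msx1-low library of every litter, near the share among all 12152 kept genes, of which 1443 were lower and 1314 higher. Their median log2 fold change in the authors' deposited table was 0.04, beside 0.003 for all kept genes.

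**Figure D3:**
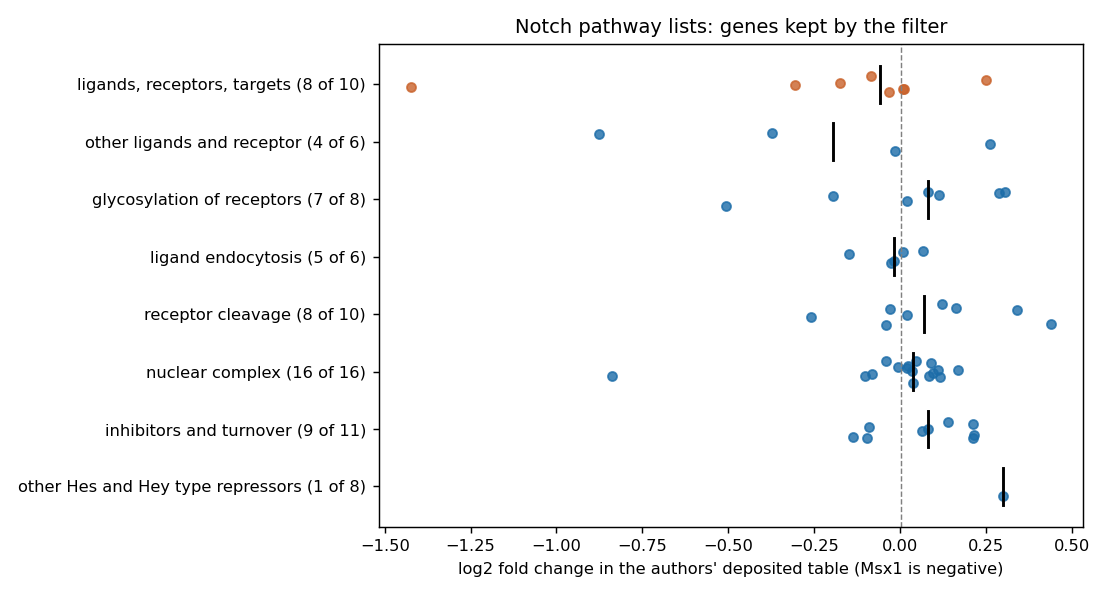
Log2 fold change in the authors' deposited table (horizontal axis, with Msx1 negative on this scale) for kept genes of the 10 and of each pathway list, with the number kept of the number in the list. Points are genes, black bars the list medians and the dashed line the median of all kept genes (0.003). Points lie mostly within 0.5 of 0, with Hey2, Dlk2 and Tle2 farthest to the left.

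Among other ligands, Dll4, the ligand of arterial and sprouting endothelium, was at 1.52, 0.99 and 0.92 TPM in Msx1-low libraries, against 1.70, 1.53 and 1.16 TPM in the Msx1-high littermates, lower in every litter. Its log2 fold change in the authors' deposited table was -0.37 ± 0.58 (unadjusted p = 0.523). Dlk1, a non-canonical ligand that lacks the DSL domain of the Jagged and Delta proteins, was far above all members, with a mean of 458 TPM over the 6 libraries and -0.02 ± 0.11 in the authors' deposited table. Dlk2, its scarce relative, was at 0.35, 1.40 and 1.24 TPM in Msx1-low libraries against 1.74, 2.60 and 0.88 TPM in Msx1-high littermates. Dll3, a divergent Delta gene of the somite clock, reached at most 0.454 TPM.

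Enzymes that add sugars to Notch receptors included Mfng, a Fringe glycosyltransferase, and Pofut1, the O-fucosyltransferase that Fringe enzymes build on. Both were lower in every litter. Mfng was at 3.08, 3.65 and 2.53 TPM in Msx1-low libraries, against 4.35, 5.71 and 3.25 TPM in Msx1-high littermates, with -0.51 ± 0.53 in the authors' deposited table (unadjusted p = 0.341). Pofut1 was at 10.6, 11.0 and 9.25 TPM in Msx1-low libraries, against 11.3, 11.7 and 12.3 TPM in Msx1-high littermates, with -0.19 ± 0.19 in the same authors' deposited table (unadjusted p = 0.299). The O-glucosyltransferase Poglut2 and the O-GlcNAc transferase Eogt had positive values of 0.30 ± 0.25 and 0.29 ± 0.24 there, but were lower in the Msx1-low library of litter 1. For the ligand-endocytosis genes the fold changes of Epn1, Mib2, Neurl1b and Mib1 in the authors' deposited table lay between -0.27 and 0.07, with unadjusted p of 0.79 or more. Mib1, the ubiquitin ligase that lets ligands pull on receptors, was at 33.0, 36.8 and 38.0 TPM in Msx1-low libraries against 38.7, 34.5 and 36.6 TPM in Msx1-high littermates.

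Of the cleavage enzymes, Aph1a, a gamma-secretase subunit, was higher in every litter, at 6.12, 8.54 and 7.59 TPM in Msx1-low libraries against 4.25, 7.54 and 4.98 TPM in the Msx1-high littermates. The authors' deposited table gives 0.44 ± 0.32 for it (unadjusted p = 0.174). Ncstn, another subunit, was at -0.26 ± 0.20, Aph1b at 0.34 ± 0.42 and the scarce Psen2 at 1.88 ± 1.47 in the authors' deposited table. In the nuclear complex, Rbpj itself was at -0.08 ± 0.12 in the authors' deposited table (unadjusted p = 0.483; interval -0.31 to 0.15), and 11 of the 16 genes of the list were positive, where 6179 of all 12152 kept genes were. Tle2, a Groucho-type corepressor that Hes proteins recruit, was at 10.2, 4.37 and 5.40 TPM in Msx1-low libraries, against 11.0, 13.5 and 9.31 TPM in Msx1-high littermates. Its log2 fold change was -0.84 ± 0.53 in the authors' deposited table (unadjusted p = 0.115). Its relative Tle4 was higher in every litter, with 0.17 ± 0.15, while the coactivator Crebbp was lower in every litter, with -0.10 ± 0.10 in the same authors' deposited table.

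The next list held inhibitors of the pathway together with turnover genes. Of its 9 kept genes, 6 were positive in the authors' deposited table, where 6179 of all 12152 kept genes were. Aak1, a kinase linked to endocytosis of Notch, was at 22.6, 24.2 and 28.4 TPM in Msx1-low libraries, against 22.0, 19.2 and 23.7 TPM in Msx1-high littermates. It had the smallest p of the list, with 0.21 ± 0.12 in the authors' deposited table (unadjusted p = 0.079). Numb, which promotes removal of the receptor from the membrane, was at 36.2, 42.0 and 48.1 TPM in Msx1-low libraries, against 35.9, 36.0 and 36.3 TPM in the Msx1-high littermates. All but 1 of the Msx1-low values of Numb were above the Msx1-high range, and the log2 fold change in the authors' deposited table was 0.21 ± 0.18 (unadjusted p = 0.238). Itch, a ubiquitin ligase, was at 0.14 ± 0.14 there. Numbl, the relative of Numb, was at 3.54 and 3.93 TPM in the Msx1-low libraries of litters 1 and 3 and listed at 0 in the other 4 libraries, so its fitted value of 6.59 ± 3.91 in the authors' deposited table is no measure of size. Nrarp, a feedback inhibitor induced by Notch, was at -0.14 ± 0.44 in the authors' deposited table (unadjusted p = 0.758).

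Other Hes-type genes were scarce. Hes2, Hes3, Hes5 and Helt were listed at 0 in every library, so that Hes5, the classic Notch target of neural progenitors, gave no signal here. Hes6, a relative that antagonises Hes1, was the only one of the 8 kept by the filter. It was at 12.6, 11.3 and 12.8 TPM in Msx1-low libraries, against 11.8, 7.19 and 11.5 TPM in Msx1-high littermates, with 0.30 ± 0.39 in the authors' deposited table (unadjusted p = 0.446). Bhlhe40, Bhlhe41 and Hes7 had -0.67 ± 0.69, -0.66 ± 0.82 and 0.45 ± 1.29 there.

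For likeness of pattern, the litter mean was subtracted from log2(TPM + 1) and each kept member was correlated with genes of at least 5 TPM on average. The 6 centred values hold only 3 independent differences, 1 a litter, so very high coefficients are common. Jag1 was closest to Atp6v1e1, Jag2 to Col5a2, Notch1 to Ppan, Notch2 to Apip, Notch3 to Gna13, Hes1 to Serhl, Hey1 to Kmt2e and Hey2 to Phf21a, all with Pearson r above 0.99 over 6 libraries. Between 26 and 177 genes passed that r for each member, and none of the 8 nearest genes is a member or on a pathway list.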

How the data were processed

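RNA of 6 libraries was measured by sequencing of polyadenylated transcripts. Per the file headers, the authors deposited 1 TPM value per gene and library; the submitters' processing notes name Salmon 1.5.2, DESeq2 and mm10 without roles or settings, and the sources used here do not give the annotation or filters. The listed TPM summed to 716208 to 735601 per library, and depth per library is unknown. Per the file headers, the authors' deposited table holds a base mean (a signal averaged over libraries), a log2 fold change with its standard error, a Wald score, and p-values; missing adjusted p-values stayed missing. Wald intervals were computed from its standard errors.

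Labelled groups were compared with limma 3.58.1 in R 4.3.3 (variance trend, robust) on log2(TPM + 1), a scale that understates changes of low genes, over the 12152 genes that reached 1 TPM in 3 or more libraries, with Benjamini-Hochberg adjustment at 0.05. Tested on simulated data for the labelled comparison (12152 genes), it called 77 of 100 genes with a change of 1 log2 unit and 98 of 100 with a change of 2, beside 16 unchanged genes, more than the threshold allows. The changed genes were drawn from those with a mean log2(TPM + 1) above 3. Jag1, Jag2 and Hey2 lay below that level, so these recovery counts do not cover them. Replicates are single embryos. Litter numbers mark shared litters per the series' design text; littermates' deviations from the label means had r of -0.05 to -0.03, and litter was fitted as an alternative. The members and lists were chosen with earlier results of these data known. Named genes are the 10 members, and per list up to 4 genes with the smallest p in the authors' deposited table; Dlk1, Rbpj, Nrarp and the Hes-type genes listed at 0 were added after their values were seen. A gene that this rule names is not reported here. Positions are from GENCODE M21 (GRCm38), promoters from RefSeq. Alternatives were another pseudocount, other filters and scalings, the litter term and leaving out libraries or litters.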

Additional observations from a re-analysis of the deposited data

How the results depend on the processing

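No member was called between the labels under any alternative run (pseudocount of 0.1 TPM, no filter, a mean of at least 5 TPM, both scalings, litter as replicate block, each library left out), nor in the authors' deposited table at an unadjusted p of 0.05. The replicate block gave 0 genes higher and 0 lower and changed no call. Leaving out each library gave 0 to 1 gene called higher (Gm5244, without the control label of litter 1) and 0 to 1 lower (Rpl29, without the mutant label of litter 1). Small labelled differences turned round: Hes1 was 0.036 with median-of-ratios scaling, and Hey2 was -0.12 with a pseudocount of 0.1 TPM and -0.0035 without mitochondrial and haemoglobin genes. Over left-out libraries Jag1 ran from -0.079 to 0.17, Jag2 from -0.18 to 0.0093, Hes1 from -0.12 to 0.046, Hey1 from -0.18 to 0.12 and Hey2 from -0.20 to 0.29. The cause was not tested.

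Within litters, the counts of 4 members lower and 1 higher were the same under both scalings, where only Hes1 in litter 1 changed direction. Median-of-ratios scaling moved the median of kept genes by 0.10, -0.007 and -0.09 in litters 1, 2 and 3. Leaving out each litter gave 4 to 7 members lower in every remaining litter and 1 to 2 higher (2 without litter 1). Without overlap, 2 to 6 were lower (6 without litter 3, 4 without litter 1) and 0 to 1 higher (1 without litter 1 or litter 2). With 1 litter fewer, a shared direction or a lack of overlap is easier to reach. A share over all genes was computed only for lower in litters 1 and 2 (30.2%). The other counts have no such baseline and are not read as a result about the members. With a pseudocount of 0.1 TPM the median log2 ratios of Dll1, Hey2 and Heyl were -1.40, -1.52 and -0.69, against -0.23, -0.68 and -0.24 with 1 TPM, since the pseudocount sets the size of differences below 1 TPM.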
